A study of Mus musculus with 8 samples.

Results

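Hypoxia pathway genes were examined in activated mouse CD8+ T cells, the cytotoxic lineage, with and without the kinase LKB1. The set held 30 genes: the subunits of the hypoxia-inducible factors (HIF), the enzymes that mark HIF for destruction or silence it, and HIF target genes outside glycolysis. They were chosen by name and matched by exact symbol, and all 30 were found among the 24421 genes of the count tables. Of these, 28 passed the filter on low counts and were tested among 10396 genes, and Adm and Car9 did not pass it. The study compared 4 control libraries, with the genotype LKB1 wild type, against 4 LKB1-deficient libraries. In both groups naive T cells had been stimulated on plates coated with antibodies against CD3 and CD28 for 48 h, and RNA was read by 3' RNA-seq, which counts 1 end of each transcript. The labels do not say how LKB1 was removed, how old the animals were, or whether each replicate was a different animal. The p-values therefore cover the spread among these libraries, which may be technical.

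HIF is a pair of proteins. Its alpha subunit, HIF-1 alpha (Hif1a) or HIF-2 alpha (Epas1), is made all the time, and in the presence of oxygen it is hydroxylated by the EGLN prolyl hydroxylases, bound by the ubiquitin ligase subunit VHL and degraded. When oxygen is low the alpha subunit persists, joins ARNT and binds DNA at hypoxia response elements. In T cells, antigen receptor and mTOR signalling also raise HIF-1 alpha at normal oxygen, and the protein is controlled largely after transcription, so transcript levels do not measure its activity.

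Control libraries held between 7090252 and 12211930 gene counts, and LKB1-deficient ones between 3454388 and 6356125. Over all tested genes, LKB1-deficient replicates 2 and 4 stood apart from the other libraries, at 51.7 and 54.4 on the first principal component (56.4% of the variance), where replicates 1 and 3 of that group lay at 12.5 and 6.79 and the controls between -37.9 and -21.7. Below, fold changes are given with all libraries and, beside them or at the end of a paragraph, without this pair. Levels are given as CPM, the counts of a gene scaled to a common library size with TMM factors. Stk11, the gene of LKB1, had 67.8 to 101 CPM in control and 64.4 to 107 CPM in LKB1-deficient libraries (log2 fold change -0.03). The labels do not say whether or where the gene was cut, and 3' counts cannot show a loss elsewhere in the transcript, so Stk11 does not check the genotype labels. Summed over 8 CD8 T cell markers, the level was 4886 to 5157 CPM in control and 3259 to 4429 CPM in LKB1-deficient libraries, so the labelled cell type was present in all. Of these 8 markers, 3 were lower in the LKB1-deficient group (Cd8a, Cd3d and Cd3g) and none was higher, beside 10.1% and 12.4% of all tested genes. The rest did not pass and went both ways. Their log2 fold changes were 0.32 for Cd3e, 0.24 for Cd2, 0.17 for Thy1, -0.48 for Cd8b1 and -0.32 for Lck. In RNA from many cells, fewer cells of a type and less RNA per cell cannot be told apart.

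The promoters of 6 members are shown because they belong to the genes whose values the results turn on: the pair that fell (Ankrd37, Plin2), and 4 genes that were lowest in LKB1-deficient replicates 2 and 4 (Bnip3, Fam162a, Egln3, Gbe1). Each is the 250 bases before the transcription start in RefSeq (GRCm38.p6), read 5′ to 3′ on the gene's strand. The intervals are chr8:45999851-46000100 (minus strand) for Ankrd37, chr4:86670060-86670309 (minus strand) for Plin2, chr7:138909507-138909756 (minus strand) for Bnip3, chr16:36071562-36071811 (minus strand) for Fam162a, chr12:54203875-54204124 (minus strand) for Egln3 and chr16:70313699-70313948 (plus strand) for Gbe1. Capitals mark the core letters of the hypoxia response element, ACGTG or GCGTG, or their reverse complements CACGT and CACGC.
Ankrd37: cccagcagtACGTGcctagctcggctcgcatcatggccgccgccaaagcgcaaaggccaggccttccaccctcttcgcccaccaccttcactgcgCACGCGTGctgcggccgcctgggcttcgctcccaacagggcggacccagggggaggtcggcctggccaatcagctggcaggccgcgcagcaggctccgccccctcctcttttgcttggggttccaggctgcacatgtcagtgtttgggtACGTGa
Plin2: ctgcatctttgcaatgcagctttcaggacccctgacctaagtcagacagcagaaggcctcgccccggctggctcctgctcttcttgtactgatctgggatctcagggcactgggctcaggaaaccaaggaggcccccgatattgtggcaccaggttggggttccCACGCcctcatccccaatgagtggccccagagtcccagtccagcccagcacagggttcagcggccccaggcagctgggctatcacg
Bnip3: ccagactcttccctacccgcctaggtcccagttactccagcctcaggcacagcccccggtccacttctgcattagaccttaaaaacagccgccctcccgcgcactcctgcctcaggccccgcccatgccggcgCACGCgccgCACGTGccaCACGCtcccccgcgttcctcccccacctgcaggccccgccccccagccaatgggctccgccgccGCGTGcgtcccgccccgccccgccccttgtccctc
Fam162a: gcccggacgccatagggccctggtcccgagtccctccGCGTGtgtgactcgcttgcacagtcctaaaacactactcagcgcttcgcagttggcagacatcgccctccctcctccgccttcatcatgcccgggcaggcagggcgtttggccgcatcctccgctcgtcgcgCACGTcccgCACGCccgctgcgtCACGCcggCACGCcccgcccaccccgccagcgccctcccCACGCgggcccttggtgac
Egln3: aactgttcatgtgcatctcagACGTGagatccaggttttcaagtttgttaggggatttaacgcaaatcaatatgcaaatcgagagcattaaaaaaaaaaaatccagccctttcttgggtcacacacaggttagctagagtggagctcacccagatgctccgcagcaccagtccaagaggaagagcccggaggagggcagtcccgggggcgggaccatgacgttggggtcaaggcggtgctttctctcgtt
Gbe1: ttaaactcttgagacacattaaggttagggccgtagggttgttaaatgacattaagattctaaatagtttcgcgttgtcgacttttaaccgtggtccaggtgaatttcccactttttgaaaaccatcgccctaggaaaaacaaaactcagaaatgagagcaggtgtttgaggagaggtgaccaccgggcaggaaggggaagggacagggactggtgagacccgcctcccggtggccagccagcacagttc

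Positions of a match are given as the distance of its first base from the start. The Ankrd37 promoter held 4 matches, at 241, 155, 152 and 6 bases before the start, and those at 155 and 152 overlap each other. Bnip3 had matches at 117, 108, 107, 99 and 35 bases, and those at 108 and 107 are a single CACGTG read on both strands. CACGTG is also the E-box bound by MYC and related factors. The Fam162a promoter had 6 matches, Egln3 had 1 at 229 bases, Plin2 had 1 at 86 bases and Gbe1 had none in this window. Of the 30 members, 27 had a promoter in the table, and 15 of these (55.6%) held ACGTG on either strand, 16 (59.3%) held GCGTG and 20 (74.1%) held either. Of the promoters of tested genes, 23% held ACGTG, 48.1% held GCGTG and 59.4% held either; over all 32851 promoters in the table these shares were 16.6%, 28.2% and 38.6%. A match is a description of the letters only, and binding was not measured.

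Most transcripts of the hypoxia pathway did not pass the test between LKB1-deficient and control cells, and those that did were lower. Of the 28 tested members, 2 fell, none rose and 26 did not pass an adjusted p of 0.05 (edgeR's quasi-likelihood test with Benjamini-Hochberg adjustment over all tested genes). The share that fell, 7.14%, is set beside 10.1% of all tested genes, and the share that rose, 0%, beside 12.4%. At an unadjusted p of 0.05, 3 of the 28 members were higher and 7 lower, beside 2164 higher and 1918 lower of all 10396 tested genes. DESeq2 called 1 member higher and 3 lower, where it called 16.4% of all tested genes higher and 12.9% lower. With limma-voom 1 member was higher and 2 were lower, beside 11.6% and 9.72% of all tested genes. The median log2 fold change of the tested members was -0.15, against 0.00 for all tested genes. Fold changes ran from -0.92 for Ankrd37 to 1.85 for Epas1, 20 negative and 8 positive. Scaling by total count moved the median of all genes to -0.16 and that of the members to -0.29, and split all calls into 829 higher (7.97%) and 1576 lower (15.2%) in place of 1286 and 1051. The members called then were 0 higher and 3 lower. Among the other settings, 1 member rose and 2 fell with no filter (all genes 7.47% and 6.93%). With the identifier term 1 rose and 1 fell (9.97% and 7.95%), with the length trend removed none rose and 1 fell (9.22% and 8.22%), and at an adjusted p of 0.01 none was called in edgeR (2.39% and 1.82%).

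**Figure D1:**
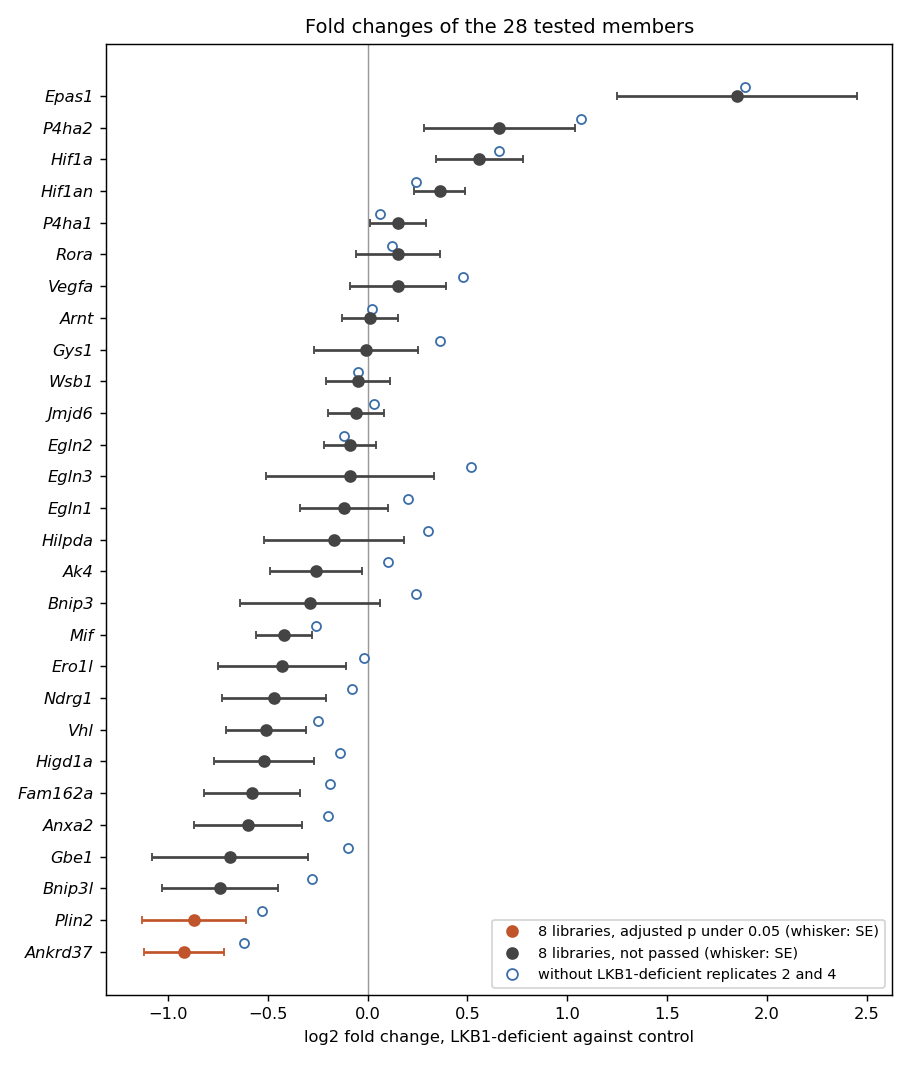
Log2 fold changes of the 28 tested members, LKB1-deficient against control, with their standard errors for all 8 libraries (filled points) and without LKB1-deficient replicates 2 and 4 (open points). With 8 libraries Ankrd37 (-0.92) and Plin2 (-0.87) passed the test. Without the pair of libraries 24 of the 28 open points lie to the right of the filled ones and none passed. In 21 of the 28 members (75%, beside 29.3% of all tested genes) that pair lay below LKB1-deficient replicates 1 and 3. For these the shift restates the order of the libraries.

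Ankrd37 was the clearest difference among the members. It encodes a small ankyrin repeat protein and is a known direct target of HIF-1, and it lies on chromosome 8 from 45996902 to 46005707 on the minus strand of GRCm38 (ENSMUSG00000050914.16). Its level was 46, 40.3, 53.9 and 47.9 CPM in control replicates 1 to 4 and 26.7, 21, 33.7 and 17.3 CPM in LKB1-deficient replicates 1 to 4. Every LKB1-deficient library lay below every control library, which held for lower values in 14.1% of all tested genes. Ankrd37 fell 1.89-fold (log2 fold change -0.92 ± 0.20 SE, adjusted p = 0.0133 by edgeR). The call held when any single library was left out (adjusted p at most 0.0409) and ended without both LKB1-deficient replicates 2 and 4, where the log2 fold change was -0.62 (adjusted p = 0.0875). The longest transcript of Ankrd37 has 927 bases. After each library's trend on transcript length was removed, its log2 fold change shrank to -0.59 and still passed (adjusted p = 0.0283 by edgeR). Ufsp2 overlaps Ankrd37 on the other strand. Its level was 148 ± 25.5 against 125 ± 21.6 CPM (control against LKB1-deficient, SD, n = 4) and did not pass. No source used here says whether counting took the strand into account.

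Plin2 and Hilpda act on lipid droplets, which store neutral fat; perilipin 2 coats them and HILPDA inhibits the lipase ATGL. Plin2 (chromosome 4, 86648386 to 86670060, minus strand) was at 16.4, 14.4, 12.7 and 13.1 CPM in control and 7.88, 3.79, 11.3 and 7.01 CPM in LKB1-deficient replicates 1 to 4. The groups did not overlap, and LKB1-deficient replicate 3 lay close to the lowest control. Plin2 fell 1.83-fold (log2 fold change -0.87 ± 0.26, adjusted p = 0.0385 by edgeR). The call ended under 12 of 20 alternatives, among them leaving out any 1 library except replicate 3 of the LKB1-deficient group (adjusted p at most 0.102), and was -0.53 (adjusted p = 0.197) without LKB1-deficient replicates 2 and 4. Hilpda was at 42.6, 64.2, 98.6 and 98.2 CPM in control cells and 90.9, 37.6, 95.2 and 45 CPM in LKB1-deficient ones. Its groups overlapped (log2 fold change -0.17 ± 0.35, adjusted p = 0.748), and the log2 fold change turned to 0.30 without that pair.

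**Figure D2:**
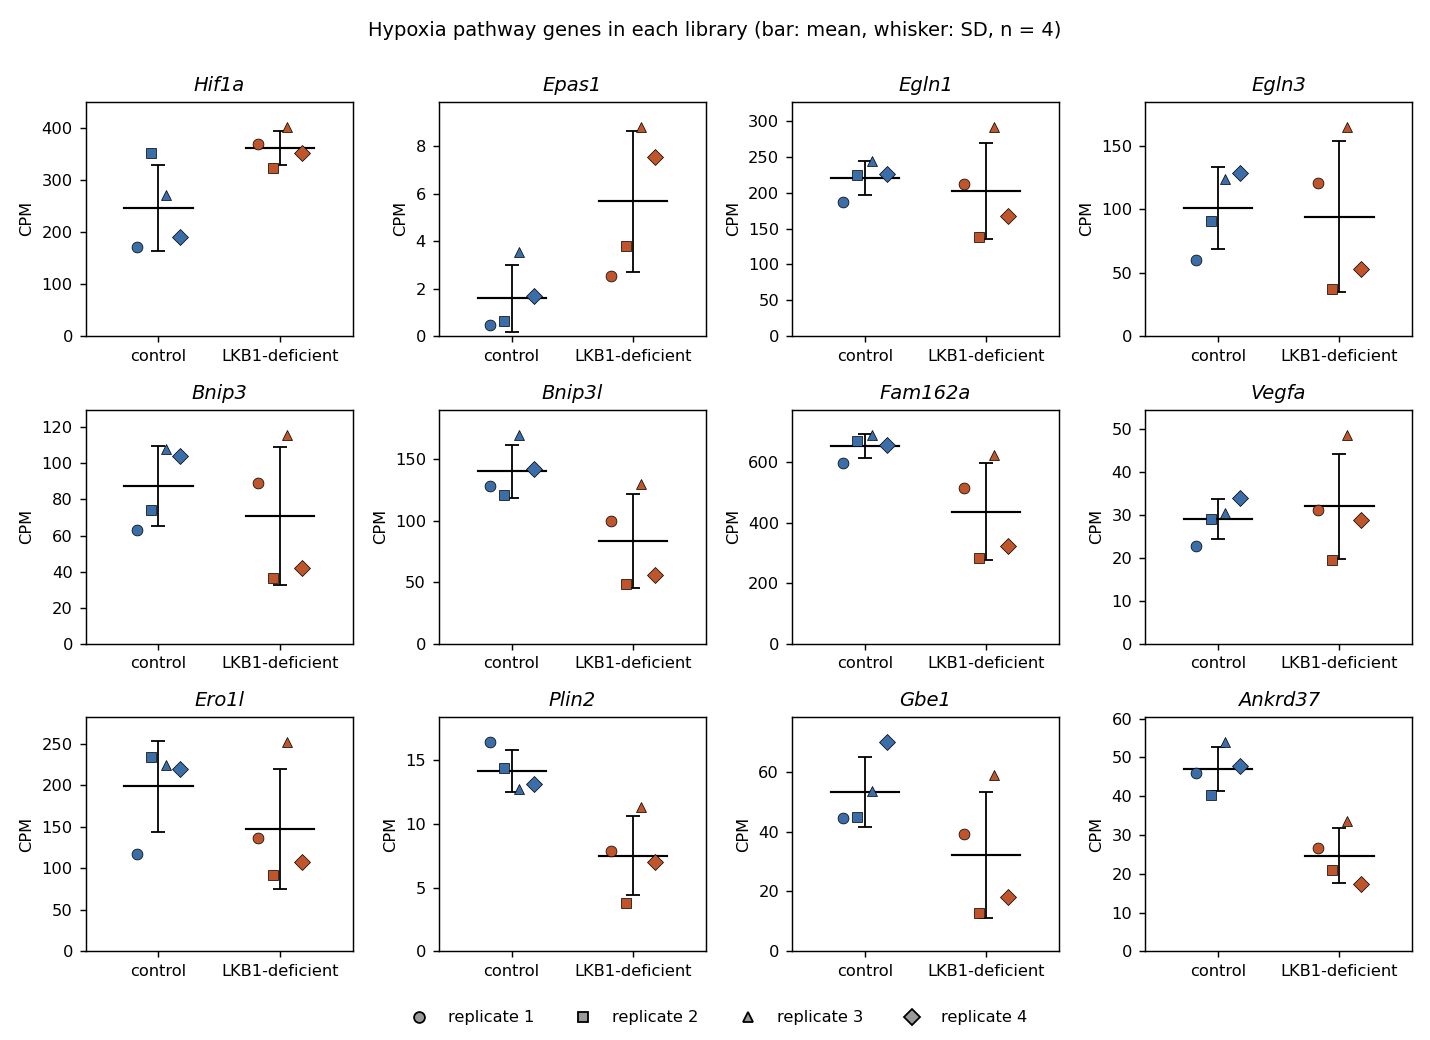
CPM (counts scaled to library size, linear axes from 0) of 12 members in each library, with control in blue and LKB1-deficient in orange, one symbol per replicate number, and bars for the mean and whiskers for the SD (n = 4). Ankrd37 and Plin2 do not overlap between groups, and in Egln3, Bnip3, Fam162a and Gbe1 LKB1-deficient replicates 2 and 4 lie below all other libraries.

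Of the HIF subunits, both alpha subunits had positive fold changes that did not pass. Hif1a (chromosome 12, 73901375 to 73947530, plus strand) was at 171, 352, 271 and 191 CPM in control and 370, 324, 403 and 352 CPM in LKB1-deficient replicates 1 to 4. The LKB1-deficient libraries were close together, spanning 1.25-fold, and the controls spanned 2.06-fold, with control replicate 2 inside the LKB1-deficient range. The log2 fold change was 0.56 ± 0.22 (adjusted p = 0.0901 by edgeR), and without control replicate 2 it was 0.78 (adjusted p = 0.0284). Epas1 (chromosome 17, 86753700 to 86833410, plus strand) had 5, 8, 47 and 13 counts in control and 9, 13, 56 and 28 counts in LKB1-deficient replicates 1 to 4, which is 0.449, 0.65, 3.56 and 1.69 CPM against 2.53, 3.79, 8.81 and 7.55 CPM. Control replicate 3 lay above LKB1-deficient replicate 1, so the groups overlapped. The log2 fold change was 1.85 ± 0.60, just short of the threshold (adjusted p = 0.0506 by edgeR). It passed with DESeq2 (adjusted p = 0.017), with limma-voom (adjusted p = 0.0355), with a term for the sample identifier's first letters (adjusted p = 0.0348), without control replicate 3 (log2 fold change 2.71, adjusted p = 0.0241) and without LKB1-deficient replicate 1 (adjusted p = 0.0383). These low counts make Epas1 one of the least precise members. Without LKB1-deficient replicates 2 and 4 the log2 fold changes were 0.66 for Hif1a (adjusted p = 0.214) and 1.89 for Epas1 (adjusted p = 0.187). Arnt, the shared partner subunit, was at 29.7 ± 2.3 CPM in control cells and 30.1 ± 4.45 CPM in LKB1-deficient ones (SD, n = 4), with a log2 fold change of 0.01 ± 0.14, and 0.02 without that pair.

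None of the genes that restrain HIF passed the test. Hif1an encodes the asparaginyl hydroxylase FIH, which blocks HIF's binding to its coactivators. It was at 16.4, 16.2, 15.2 and 14.4 CPM in control and 18.3, 23, 18.4 and 20.5 CPM in LKB1-deficient replicates 1 to 4. It was the 1 tested member whose LKB1-deficient libraries all lay above the controls, as in 12% of all tested genes, and the difference did not pass (log2 fold change 0.36 ± 0.13, adjusted p = 0.0709 by edgeR). With each library's trend on transcript length removed it was 0.06. Vhl was at 24.6, 27.1, 32.9 and 20.4 CPM in control cells and 22.5, 13.7, 21.7 and 15.4 CPM in LKB1-deficient ones (log2 fold change -0.51 ± 0.20, adjusted p = 0.0883). The lowest Vhl values were in LKB1-deficient replicates 2 and 4, without which the log2 fold changes were -0.25 for Vhl and 0.24 for Hif1an.

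The 3 prolyl hydroxylase genes differed in how far their LKB1-deficient libraries spread. Egln2, which is not known as a HIF target, spanned 1.26-fold among them, with 28.3 ± 2.77 CPM in control cells and 26.5 ± 2.94 CPM in LKB1-deficient ones. Egln1, which encodes the main oxygen-sensing hydroxylase and is induced by HIF, was at 187, 225, 245 and 226 CPM in control and 212, 138, 292 and 167 CPM in LKB1-deficient replicates 1 to 4, a span of 2.12-fold. Egln3, the hydroxylase gene most responsive to HIF (chromosome 12, 54178981 to 54203860, minus strand), was at 59.8, 90.7, 124 and 129 CPM in control cells and 121, 37, 165 and 53.1 CPM in LKB1-deficient ones, a span of 4.47-fold. Replicate 3 was the highest of all 8 libraries for Egln1 and Egln3, and replicates 2 and 4 of the same group were the lowest. The log2 fold changes were -0.09 ± 0.13 for Egln2, -0.12 ± 0.22 for Egln1 and -0.09 ± 0.42 for Egln3. Without LKB1-deficient replicates 2 and 4, Egln1 turned to 0.20 and Egln3 to 0.52, neither of which passed (adjusted p = 0.548 and 0.339), and Egln2 was at -0.12.

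The mitochondrial members had negative fold changes that did not pass. BNIP3 and BNIP3L are receptors that direct mitochondria to autophagy. Bnip3 was at 63.2, 74.4, 108 and 104 CPM in control and 88.9, 36.7, 116 and 41.8 CPM in LKB1-deficient replicates 1 to 4 (log2 fold change -0.29 ± 0.35, adjusted p = 0.556). Bnip3l was at 128, 121, 170 and 142 CPM in control cells and 100, 48.1, 130 and 55.8 CPM in LKB1-deficient ones. Only LKB1-deficient replicate 3 reached into the control range of Bnip3l, whose log2 fold change was -0.74 ± 0.29 (adjusted p = 0.0837). Fam162a, encoding a mitochondrial protein induced by hypoxia, was at 596, 671, 691 and 655 CPM in control cells and 516, 284, 625 and 322 CPM in LKB1-deficient ones (log2 fold change -0.58 ± 0.24, adjusted p = 0.101). Its longest transcript has 718 bases, and with the trend on transcript length removed the log2 fold change was -0.22 (adjusted p = 0.441 by edgeR). Higd1a, which encodes a protein of the respiratory chain supercomplexes, was at 210 ± 34.2 and 147 ± 57.2 CPM. Ak4, a mitochondrial adenylate kinase gene, was at 47.9 ± 7.77 and 39.6 ± 13.2 CPM (SD, n = 4 in each). For Bnip3 and Ak4 the fold change turned positive without LKB1-deficient replicates 2 and 4, at 0.24 and 0.10. The other fold changes shrank on the log2 scale without that pair, to -0.28 for Bnip3l, -0.19 for Fam162a and -0.14 for Higd1a.

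The secreted signals showed no change that passed. Vegfa, the growth factor of blood vessels, was at 22.9, 29.2, 30.6 and 34 CPM in control and 31.2, 19.5, 48.8 and 28.8 CPM in LKB1-deficient replicates 1 to 4 (log2 fold change 0.15 ± 0.24, adjusted p = 0.668). Its highest and its lowest library were both LKB1-deficient, and the log2 fold change was 0.48 without LKB1-deficient replicates 2 and 4 (adjusted p = 0.24). Mif, a cytokine gene of 600 transcript bases, was at 113, 102, 136 and 129 CPM in control cells and 97.6, 78.4, 103 and 80.9 CPM in LKB1-deficient ones (log2 fold change -0.42 ± 0.14, adjusted p = 0.0594). It passed with upper quartile scaling (adjusted p = 0.0448), with total count scaling (adjusted p = 0.0406), with DESeq2 (adjusted p = 0.0318), without control replicate 2 (adjusted p = 0.0483) and without LKB1-deficient replicate 3 (adjusted p = 0.0373). After removal of the trend on transcript length the log2 fold change of Mif was 0.02, and without LKB1-deficient replicates 2 and 4 it was -0.26. Mif has 2 annotated pseudogenes, and Vhl and Bnip3l have 1 each. Reads shared with a pseudogene could be non-unique alignments, which no gene received, and this was not tested. Adm, encoding the vessel-dilating peptide adrenomedullin, had 2, 6, 5 and 2 counts in control and 8, 6, 6 and 2 counts in LKB1-deficient libraries, or 0.18 to 0.487 against 0.539 to 2.25 CPM. Car9, the cell surface carbonic anhydrase that is a standard hypoxia marker, had 2 to 7 counts in control and 2 or 3 counts in LKB1-deficient libraries. Both were under the count filter, and neither level can be compared with precision at this depth.

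The genes of collagen and protein folding did not move together. P4ha1 and P4ha2 encode catalytic subunits of collagen prolyl hydroxylase, and Ero1l encodes the oxidase that forms disulfide bonds in the endoplasmic reticulum. P4ha1 was at 120 ± 17.3 CPM in control cells and 132 ± 13.5 CPM in LKB1-deficient ones (log2 fold change 0.15 ± 0.14, turning to -0.02 with total count scaling). P4ha2 was at 6.29, 14, 16 and 19 CPM in control and 29, 8.74, 28.3 and 19.9 CPM in LKB1-deficient replicates 1 to 4. Replicates 1, 3 and 4 of the LKB1-deficient group lay above all controls and replicate 2 lay low among them (log2 fold change 0.66 ± 0.38, adjusted p = 0.221). Ero1l was at 117, 234, 224 and 220 CPM in control cells and 137, 92.1, 252 and 108 CPM in LKB1-deficient ones (log2 fold change -0.43 ± 0.32, adjusted p = 0.345). Without LKB1-deficient replicates 2 and 4 the log2 fold changes were 0.06 for P4ha1, 1.07 for P4ha2 (adjusted p = 0.134) and -0.02 for Ero1l.

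The glycogen genes, glycogen synthase 1 (Gys1) and the branching enzyme (Gbe1), overlapped between groups. Gbe1 was at 44.6, 45, 53.6 and 69.9 CPM in control and 39.1, 12.8, 59 and 18.3 CPM in LKB1-deficient replicates 1 to 4, the widest span among LKB1-deficient libraries of all tested members, 4.6-fold. Its log2 fold change was -0.69 ± 0.39 (adjusted p = 0.209), and -0.10 without LKB1-deficient replicates 2 and 4. Gys1 was at 34.7 ± 5.66 CPM in control cells and 34.1 ± 14 CPM in LKB1-deficient ones, with log2 fold changes of -0.01 in all libraries and 0.36 without that pair.

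Among the other targets, Ndrg1, encoding a stress-responsive protein, and Anxa2, encoding the membrane-binding annexin A2, were both lowest in LKB1-deficient replicates 2 and 4. Ndrg1 was at 51.3, 51, 75.2 and 67.4 CPM in control and 50.1, 28.6, 65 and 31.3 CPM in LKB1-deficient replicates 1 to 4 (log2 fold change -0.47 ± 0.26, adjusted p = 0.195). Anxa2 was at 290, 385, 465 and 423 CPM in control cells and 306, 156, 371 and 196 CPM in LKB1-deficient ones (log2 fold change -0.60 ± 0.27, adjusted p = 0.123). Without replicates 2 and 4 of that group the log2 fold changes were -0.08 for Ndrg1 and -0.20 for Anxa2. Wsb1, Jmjd6 and Rora encode a ubiquitin ligase subunit, a JmjC-domain oxygenase and a nuclear receptor. They differed little, with log2 fold changes of -0.05 ± 0.16, -0.06 ± 0.14 and 0.15 ± 0.21, and without that pair -0.05, 0.03 and 0.12. Rora spanned 18.7 to 20.4 CPM in the LKB1-deficient and 10.4 to 21.4 CPM in the control libraries, and its sign flipped with total count scaling.

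The feature that most members shared was their spread over the LKB1-deficient libraries, described here after the values were seen. In 15 of the 28 tested members, LKB1-deficient replicates 2 and 4 were below all 6 other libraries; this held in 20.8% of all tested genes. These 15 were Vhl, Egln1, Egln3, Bnip3, Bnip3l, Higd1a, Fam162a, Ak4, Mif, Ero1l, Plin2, Gbe1, Ndrg1, Ankrd37 and Anxa2. The opposite held for Hif1an alone among the members, and in 19% of all tested genes. Over the 20 tested targets, the median log2 ratio of a library to the control mean (CPM plus 0.5) was -1.05 and -0.81 in LKB1-deficient replicates 2 and 4. In replicates 1 and 3 it was -0.17 and 0.09, and in control replicates 1 to 4 it was -0.23, -0.11, 0.18 and 0.13. The median over all tested genes stayed between -0.03 and 0.00 in every library. The median SD of log2 CPM over the members was 0.24 among controls and 0.54 among LKB1-deficient libraries, against 0.20 and 0.28 for all tested genes.

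**Figure D3:**
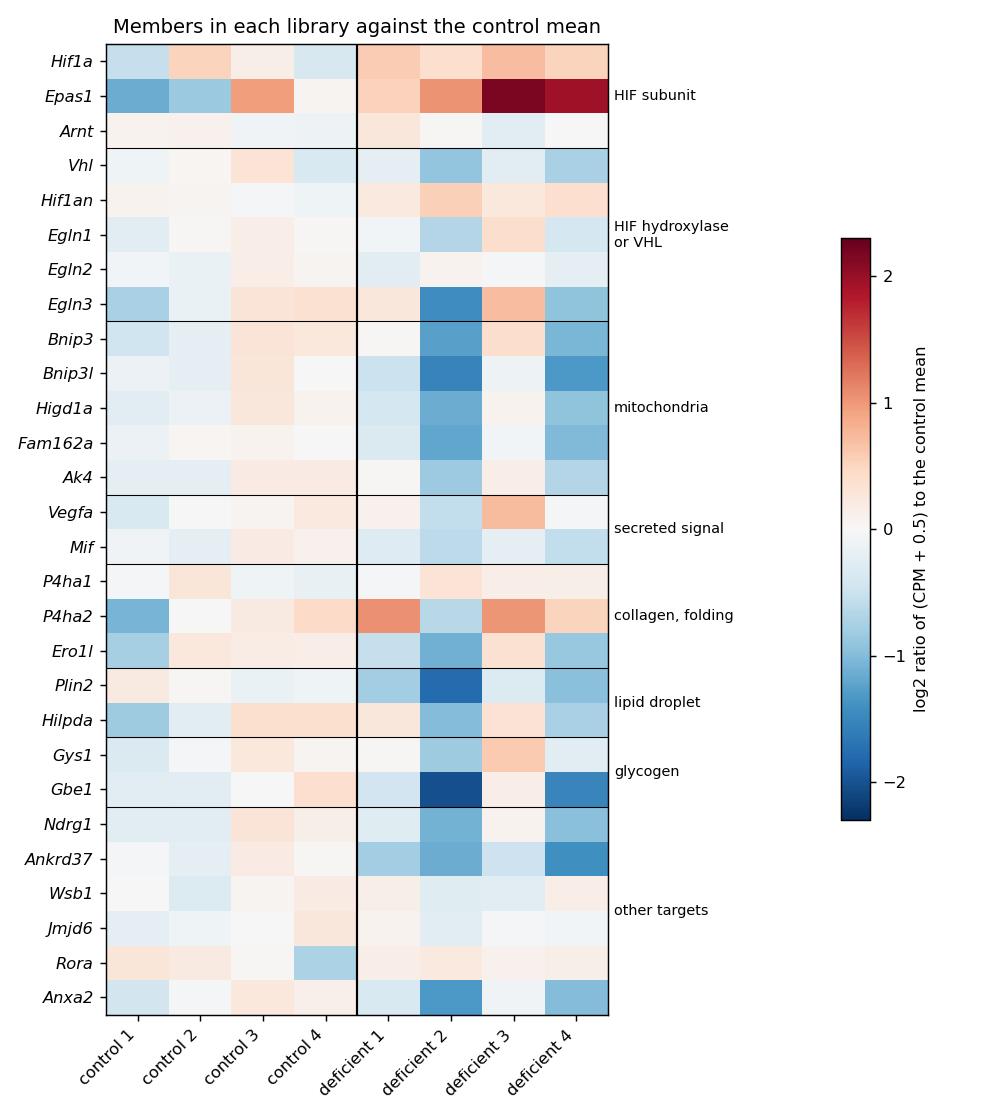
Log2 ratio of each library's value (CPM plus 0.5) to the control mean for the 28 tested members (rows, ordered by role) in the 4 control and 4 LKB1-deficient libraries (columns), with blue below and red above the control mean. LKB1-deficient replicates 2 and 4 are blue for most targets, while replicates 1 and 3 are close to the controls and Hif1a and Epas1 are above the control mean in all 4.

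The controls differed among themselves as well. In 19 of the 28 tested members (67.9%) control replicates 1 and 2 were both below control replicates 3 and 4, as in 29.4% of all tested genes. The count of members called depended on single libraries accordingly. Without LKB1-deficient replicate 3, 10 members fell (35.7%, beside 12.8% of all tested genes): Ankrd37, Plin2, Bnip3l, Higd1a, Fam162a, Gbe1, Ero1l, Ndrg1, Anxa2 and Mif, with log2 fold changes from -1.19 to -0.50. Without LKB1-deficient replicates 2 and 4, no member passed in edgeR, and the shares of all tested genes called were 1.48% higher and 0.895% lower. At an unadjusted p of 0.05, 3 members were then higher and 2 lower, beside 1282 higher and 1149 lower of all 10948 genes tested in that setting. The members' median log2 fold change was 0.03. Leaving out libraries makes the group smaller, so a lost call does not show that a difference was absent.

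Several other measures moved with LKB1-deficient replicates 2 and 4. Markers of mast cells and basophils (7 genes) summed to 6.88 to 10.5 CPM in control libraries and 12.1, 37.9, 14 and 30.2 CPM in LKB1-deficient replicates 1 to 4. Of the 4 tested, 2 were higher and none lower, beside 12.4% and 10.1% of all tested genes. The 2 were Gata2 and Il1rl1, with 9.62 and 14 CPM in replicate 2 and 8.36 and 9.97 CPM in replicate 4, most of the sum there. Mcpt8 and Kit did not pass (adjusted p = 0.0511 and 0.369 by edgeR). Fcer1a had 0 to 0.26 CPM in control and 0 to 0.539 CPM in LKB1-deficient libraries. No gene of that list was at 0 in every library. The CD8 T cell markers summed to 3828, 3278, 4429 and 3259 CPM in the same 4 libraries. Of the other cell types listed, B cell markers summed to 28.4 to 38.2 CPM in control and 17.9 to 32.1 CPM in LKB1-deficient libraries. Of 6 B cell genes 2 were tested, 1 of these was lower (beside 10.1% of all tested genes) and Pax5 was at 0. Endothelial and stromal markers summed to 12.9 to 25.9 and 5.35 to 10.9 CPM. Of those 6 genes only Pecam1 was tested, and it was lower, with Cdh5 at 0. Nearly all of that sum was Pecam1, at means of 17.2 CPM in control and 6.34 CPM in LKB1-deficient libraries. Myeloid markers summed to 120 to 135 and 105 to 144 CPM, nearly all of it Cst3 (means of 121 and 119 CPM). NK cell markers summed to 9.48 to 12.3 and 10.9 to 18.1 CPM, mostly Klre1 (means of 9.66 and 10.5 CPM). CD4 T cell markers summed to 6.56 to 9.08 and 3.23 to 9 CPM. Erythroid markers summed to at most 0.0812 and 0.539 CPM, with Hbb-bs, Hba-a1, Hba-a2 and Alas2 at 0. A sum that rests on few genes does not show that the cell type was present. Counts outside annotated genes came to 17.5% and 16.5% in replicates 2 and 4, against 12.1% to 15.9% in the other 6 libraries. Non-unique alignments per gene count were lowest in replicates 2 and 4, at 2.246 and 2.213. They were 2.648 and 2.62 in LKB1-deficient replicates 1 and 3, and 2.92 to 3.502 in controls. The part of these measures in the members' values was not tested.

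In the wider pathway edgeR called the regulators Hsp90aa1, Hsp90ab1, Ep300 and Gnb2l1, the target Angptl4 and the hexokinase gene Hk2. Of 16 listed regulators of HIF, 14 were tested, 3 rose (21.4%, beside 12.4% of all tested genes) and 1 fell (7.14%, beside 10.1%). At an unadjusted p of 0.05, 6 of the 14 regulators were higher and 1 lower, beside 2164 higher and 1918 lower of all 10396 tested genes. DESeq2 called 5 higher (35.7%, beside 16.4%). Hsp90aa1, a gene of the chaperone HSP90 that stabilises HIF-1 alpha among many clients, rose 2.14-fold (883 ± 97.2 to 1889 ± 469 CPM, adjusted p = 0.00705 by edgeR). Hsp90ab1, the other cytosolic HSP90 gene, rose 1.6-fold (9373 ± 766 to 14981 ± 3389 CPM, adjusted p = 0.0372). Ep300, a coactivator of HIF, also rose (log2 fold change 1.10, adjusted p = 0.0427), although its libraries overlapped: it had 19.7 to 42.3 CPM in control and 38.8, 89.8, 40.8 and 86.3 CPM in LKB1-deficient replicates 1 to 4. Gnb2l1, encoding the scaffold RACK1, which promotes the degradation of HIF-1 alpha, fell 1.47-fold (adjusted p = 0.0451). Without LKB1-deficient replicates 2 and 4, Hsp90aa1 alone of these regulators rose (log2 fold change 0.79, adjusted p = 0.0466 by edgeR). The values were then 0.41 for Hsp90ab1 (adjusted p = 0.228), 0.43 for Ep300 (adjusted p = 0.457) and -0.33 for Gnb2l1 (adjusted p = 0.248).

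Of 27 other HIF targets outside glycolysis, 18 were tested, 1 fell (5.56%, beside 10.1% of all tested genes) and none rose (beside 12.4%). At an unadjusted p of 0.05 none of the 18 was higher and 3 were lower, beside 2164 higher and 1918 lower of all 10396 tested genes. DESeq2 called 1 lower (beside 12.9% of all tested genes) and limma-voom none (beside 9.72%). Without LKB1-deficient replicate 3 edgeR called 5 lower (26.3%, beside 12.8%). The 1 that fell with all libraries was Angptl4, a secreted inhibitor of lipoprotein lipase, at 17.3, 10.9, 9.38 and 10.9 CPM in control and 7.03, 5.54, 9.29 and 5.66 CPM in LKB1-deficient replicates 1 to 4 (1.73-fold lower, adjusted p = 0.0468 by edgeR). Its log2 fold change was -0.54 without LKB1-deficient replicates 2 and 4 (adjusted p = 0.324). Of 20 genes of glucose uptake and glycolysis that HIF can induce, 19 were tested and 1, the hexokinase gene Hk2, rose (5.26%, beside 12.4% of all tested genes). Hk2 was 2.6-fold higher (log2 fold change 1.38, adjusted p = 0.00268 by edgeR) and also rose without LKB1-deficient replicates 2 and 4 (1.32, adjusted p = 0.0303). No gene of this list fell in edgeR. At an unadjusted p of 0.05, 5 of the 19 were lower and 1 higher, beside 1918 lower and 2164 higher of all 10396 tested genes. DESeq2 and limma-voom called 1 lower each (beside 12.9% and 9.72% of all tested genes). Without LKB1-deficient replicate 3 edgeR called 3 lower (15.8%, beside 12.8%). The median log2 fold change was -0.22 for the other targets and -0.29 for the glycolysis list, beside -0.15 for the members and 0.00 for all tested genes. Leaving out LKB1-deficient replicates 2 and 4 gave medians of -0.13 for the other targets and 0.06 for the glycolysis list, which then had 11 positive and 9 negative fold changes. The glycolysis list includes genes with few counts. Control means were 5.9 CPM for Gapdh, 1.85 CPM for Pgam1 and 0.655 CPM for Eno1, beside 3102 CPM for Ldha and 1503 CPM for Aldoa. Alignments to more than a single place were counted for no gene. Whether this lowered the levels of Gapdh, Pgam1 and Eno1 was not tested, so their values may not measure expression.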

How the data were processed

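Groups of the 8 libraries, 4 control and 4 LKB1-deficient, follow the titles. Libraries were made with barcoded oligo-dT primers, keep the strand and read 3' ends, per the labels' protocols; with no molecular identifiers stated, PCR duplicates cannot be set aside. The deposited tables hold the authors' raw counts per gene. The aligner was STAR and the build mm10, per the submitters' processing notes; how reads were counted is not given there. The last 5 lines of each table name no gene and were dropped. Counts outside annotated genes made up 12.1% to 17.5% of gene, ambiguous and unannotated counts. Non-unique alignments, which no gene received, numbered 2.92 to 3.502 per gene count in control and 2.213 to 2.648 in LKB1-deficient libraries.

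The test was edgeR 4.0.16 in R 4.3.3 (filterByExpr with a minimum count of 10 and total of 15, TMM, robust quasi-likelihood fit without covariates), with Benjamini-Hochberg adjustment over all tested genes and a threshold of 0.05. The standard error (SE) is approximate: |log2 fold change| over the root of the F statistic. Simulated data for 10302 genes of LKB1-deficient against control gave recovery of 7.46% at 1.5-fold, 68.7% at 2-fold and 95.4% at 4-fold, with 11 false calls among 124. Only 67, 67 and 65 genes were changed at these folds, with the same spread per gene in both groups. In the data 2337 genes were called and LKB1-deficient libraries spread more widely, so recovery there may differ. No library was a duplicate of another in its group (chi-square per degree of freedom, 11.6 to 49.05), and libraries of different groups were not compared in this way. Alternatives were upper quartile scaling, total count scaling, DESeq2 1.42.0, limma-voom (limma 3.58.1), testing with no count filter, keeping genes at a mean CPM of 10 or more, an adjusted p of 0.01, a replicate block, a term for the identifiers' first letters, thinning to 3454388 counts, subtracting a lowess trend on transcript length (span 0.3; 99.6% of tested genes had a length), and leaving out each library, or LKB1-deficient replicates 2 and 4 together.

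Members and lists were chosen with earlier results of these data known. Genes named are Stk11, the members, up to 6 genes per list and direction that passed with non-overlapping libraries, and genes overlapping a member on its strand; Ep300, Ufsp2, Mettl23 and Tmem45a were added after their values were seen. Gene positions come from GENCODE vM21 (GRCm38, also called mm10) and promoters from RefSeq (GRCm38.p6), in which 27 of 30 members matched, Epas1, Bnip3l and Ndrg1 not among them. On the same strand, Gm49321 overlaps Hif1a, AC096777.1 Epas1, Gm42672 Arnt, Gm27401 Jmjd6 and Mir3109 Anxa2; Mir3109 had at most 0.27 CPM and the others were not analysed here.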

Additional observations from a re-analysis of the deposited data

Results flagged for a closer look

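Ero1l in control replicate 1, at 117 CPM, lay far below the other 3 controls, at 220 to 234 CPM. The gap to the nearest control was 0.882 of the group's range. This was the 1 value that stood out so among 56 groups of 4 checked, of which chance is expected to mark about 1 in 20.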

How the results depend on the processing

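Over 28 tested members and 20 alternatives, 483 of 558 values kept direction and side of the threshold, 20 gained a call, 14 lost one (Plin2 12, Ankrd37 2) and 41 changed sign, none of them as a call. The cause was not tested for any change below, except that tightening the threshold makes calls harder. Leaving out libraries makes a group smaller, but calls did not always become fewer. All genes called rose to 2825 without LKB1-deficient replicate 3 and to 2445 without LKB1-deficient replicate 1. All genes called, 2337, came to 437 at an adjusted p of 0.01, 260 without LKB1-deficient replicates 2 and 4, and 1011 (without control replicate 3) to 2825 (without LKB1-deficient replicate 3) with single libraries left out; it was also low without LKB1-deficient replicate 4 (1017) or 2 (1113) and control replicate 4 (1303). Members higher, 0, became 1 with DESeq2, limma-voom, the block and the identifier term (Epas1) and with no filter (Adm), and 0 to 1 with single libraries left out. Members lower, 2, became 1 (Ankrd37) with the identifier term or the length trend removed, 0 at an adjusted p of 0.01 and without replicates 2 and 4, and 1 to 10 with single libraries left out.

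Regulators higher, 3, became 5 with DESeq2 and 1 at 0.01, with the block, with the identifier term and without replicates 2 and 4 (1 to 4 with single libraries left out); regulators lower, 1, became 0 under those last 4 and with thinning (0 to 1). Other targets lower, 1, became 2 with no filter and 0 with limma-voom, the CPM filter, 0.01, the block, the identifier term, thinning, the length trend removed and without replicates 2 and 4 (0 to 5); other targets higher ran from 0 to 1. Glycolysis genes lower, 0, became 1 with DESeq2, limma-voom and the block (0 to 3).

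Signs turned, in log2 fold change, for Arnt with upper quartile (-0.09) and total count scaling (-0.15), limma-voom (0.00), no filter (-0.02), the CPM filter (-0.01) and the length trend removed (-0.08); for P4ha1 (-0.02) and Rora (-0.01) with total count scaling; for Gys1 with thinning (0.05); with the length trend removed for Egln2 (0.05), Mif (0.02), Hilpda (0.14), Wsb1 (0.06) and Rora (-0.41); and without replicates 2 and 4 for Egln1 (0.20), Egln3 (0.52), Bnip3 (0.24), Ak4 (0.10), Hilpda (0.30), Gys1 (0.36) and Jmjd6 (0.03). With single libraries left out the ranges that crossed 0 were -0.08 to 0.09 for Arnt, -0.37 to 0.02 for Egln1, -0.53 to 0.17 for Egln3, -0.14 to 0.33 for Vegfa, -0.40 to 0.03 for Hilpda, -0.33 to 0.18 for Gys1, -0.14 to 0.02 for Wsb1, -0.13 to 0.03 for Jmjd6 and -0.03 to 0.25 for Rora.

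The groups share replicate numbers. The deviations of same-numbered libraries correlated for numbers 2 (0.291) and 3 (0.3) and not for 1 (-0.251) and 4 (-0.0861). Control replicate 1 correlated best with LKB1-deficient replicate 2 (0.259). With so few libraries these correlations cannot show whether the numbers pair libraries, and the labels do not say. With the replicate block 1902 genes were called, 1 member was higher (Epas1, log2 fold change 1.96, adjusted p = 0.0125) and 2 were lower (Ankrd37, -0.96, and Bnip3l, -0.85). Depth limits Adm, Car9 and Epas1, which had 2 to 56 counts per library.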

Other observations

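Outside the members, Tmem45a, a transmembrane protein gene induced by hypoxia in several cell types, had 17, 20, 13 and 11 counts in control replicates 1 to 4 and 1, 0, 1 and 1 counts in LKB1-deficient replicates 1 to 4, or 0.984 to 1.62 against 0 to 0.281 CPM. It was under the count filter and was singled out after its values were seen. Mettl23, which overlaps Jmjd6 on the other strand, fell from 36 ± 7.43 to 22.3 ± 2.19 CPM (SD, n = 4; adjusted p = 0.0201 by edgeR), while Jmjd6 was at 126 ± 17.7 and 121 ± 11.7 CPM.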
